A study of Mus musculus with 16 samples.

Results

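The mRNAs of the translation initiation and elongation factors were taken as every gene on the array whose name begins with Eif or Eef followed by a digit, with Eif6, the targeted gene, set aside. The rule found 62 genes among 30214 gene names. It took in the factors themselves, the eIF2 kinases (Eif2ak genes) and the eIF4E-binding proteins (Eif4ebp genes). After a filter on dim probes 60 of the 62 could be tested, and 58 of them were well above background on all 16 arrays. Eif2s3y, a Y-linked copy of an eIF2 subunit gene, and Eif4e1b, a germline relative of Eif4e, were not well above background on any array and have no value here.

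The arrays were hybridised with RNA of AML12 cells, a non-tumourigenic mouse hepatocyte line derived from mice transgenic for TGFα. The cells carried a doxycycline-inducible lentiviral vector (pINDUCER11, selected with puromycin) with a scramble hairpin or a hairpin against eIF6. The labels write shRNA without a target, and the target is taken from the study's methods. All 4 groups were given doxycycline and then 100 nM insulin for 1 h, so no group here shows the cells without either. Each lysate was run on a sucrose gradient, and the late fractions were pooled as polysomal RNA and the early ones as subpolysomal RNA. The groups were therefore scramble subpolysomal, scramble polysomal, eIF6 shRNA subpolysomal and eIF6 shRNA polysomal, with 4 arrays each, described as biological replicates, 1 of every group on each of 4 slides.

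Initiation begins when eIF2, bound to GTP and the initiator tRNA, joins eIF1, eIF1A, eIF3 and eIF5 on the small ribosomal subunit. The cap-binding protein eIF4E, the scaffold eIF4G and the helicase eIF4A bring the mRNA to it, eIF2B reloads eIF2 with GTP, and eEF1A and eEF2 drive elongation. Many mRNAs of the translation apparatus, above all those of ribosomal proteins and elongation factors, start with a run of pyrimidines (a 5′ terminal oligopyrimidine tract, TOP), and insulin acts on their use by ribosomes through mTORC1 and the eIF4E-binding proteins.

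Eif6 itself, by the mean of 3 probes, read 12.96, 12.94, 12.96 and 12.94 (log2 signal, replicates 1 to 4) on the scramble polysomal arrays and 11.92, 12.00, 11.85 and 11.81 on the eIF6 shRNA polysomal arrays. The groups did not overlap. In subpolysomal RNA its difference was 0.02 (adjusted p = 0.915), so a lower Eif6 signal was called in polysomal RNA and not in subpolysomal RNA. Between 20194 and 24957 probes were well above background on an array. Of 8 hepatocyte markers 6 were well above background on all 16 arrays, while Alb, the albumin gene, was so on 7 and Apoa1 on 2. Ttr, the transthyretin gene, was higher in both fractions of the eIF6 shRNA cells, by 1.15 in polysomal and 1.33 in subpolysomal RNA, and the other 7 were not called. All 6 mesenchymal markers were well above background on all 16 arrays, and 5 of them (Col1a1, Col1a2, Col3a1, Acta2 and Pdgfrb, not Vim) were lower in both fractions of the eIF6 shRNA cells. The log2 of the summed signal of all 6 was 17.01 to 17.10 in scramble and 15.87 to 16.18 in eIF6 shRNA subpolysomal RNA. In polysomal RNA it was 17.31 to 18.07 in scramble and 14.73 to 15.42 in eIF6 shRNA cells. The part of these marker differences in the results on translation factors was not tested. Of the immune, endothelial and cholangiocyte markers 1 of 3, 2 of 3 and 2 of 3 were well above background on all 16 arrays, and none was called changed between the cells. In bulk RNA, fewer cells of a type and less RNA per cell cannot be told apart.

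The first question was how translation factor mRNAs were divided between the fractions in scramble cells. The measure was the polysomal minus the subpolysomal log2 signal, after quantile normalization had given every array the same distribution. It is therefore a position relative to the other mRNAs and not the share of a transcript that sat on polysomes. Of the 60 tested members 25 were higher in polysomal RNA, 18 were lower and 17 did not pass the test (limma, Benjamini-Hochberg adjusted p under 0.05 over all genes). Over all genes tested, 31.7% were called higher and 28.4% lower. The members' median was 0.20, against 0.04 for all genes. Counts of this kind depend on the scaling. They became 19 higher and 22 lower when each array was scaled to its 75th percentile, 48 and 0 with scaling to the spike-in probes, and 53 and 0 when each fraction was quantile normalized on its own. The median of all genes moved to 1.52 under spike-in scaling and to 1.38 under separate normalization. What follows is the order among mRNAs under quantile normalization over all arrays.

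The TOP group among the members was taken as the elongation factor mRNAs Eef1a1, Eef1b2, Eef1d, Eef1g and Eef2 with Eif3e, Eif3f, Eif3h and Eif4b, which are known as TOP mRNAs. It was chosen with earlier results of these data known, so the counts below describe the list and are not an independent test of it. In scramble cells 8 of the 9 were lower in polysomal than in subpolysomal RNA and 1, Eef1d, was higher. Their median was −0.87. Among the other 51 tested members 10 were lower and 24 higher, with a median of 0.28. These 8 lay below the median of all genes, and below that of the members, under each of the 11 alternative settings and each omission of an array or a replicate number. Relative to the median of all genes, the TOP median ranged from −1.16 to −0.76 over these settings and that of the other members from 0.20 to 0.43. With spike-in scaling or separate normalization, however, none of the 9 was called lower. The whole scale shifted upwards in both. Tested relative to the median of all genes in scramble cells, 18 members were lower and 25 higher with the main settings. These counts were 1 and 2 with spike-in scaling and 11 and 30 with separate normalization.

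To show what such a start looks like, the annotated first bases of 5 members low and 3 members high in polysomal RNA are given from RefSeq (GRCm38.p6). Each window holds 8 bases before and 22 bases from the annotated transcription start, on the transcript's strand, 5′ to 3′. A run was a C followed by at least 4 further pyrimidines. Capitals mark the longest run in a window, or the first of equally long ones. The windows are Eef1a1 at chr9:78481703-78481732 (minus strand), Eif3f at chr7:108934407-108934436 (plus), Eef2 at chr10:81176623-81176652 (plus), Eef1b2 at chr1:63176823-63176852 (plus), Eif4a2 at chr16:23107460-23107489 (plus), Eif1ax at chrX:159372170-159372199 (plus), Eif2ak1 at chr5:143817784-143817813 (plus) and Eif4h at chr5:134639388-134639417 (minus).
Eef1a1: ccgCCCTCTTCCCgagggtgggggagaacg
Eif3f: taggCTCTCTCTCTTTCTCggcaagatggc
Eef2: ggccgggcgttgacgtcagcggtCTCTTCC
Eef1b2: gcagttccgccggaagtagccgaggccttg
Eif4a2: aaccccgtaggagcagggcggccgaggagc
Eif1ax: aggagggcggggagaagccccgcccgctgc
Eif2ak1: ggaCTTCCgttggctcttgtgttacttccg
Eif4h: ttgcgatcaggcagcgcggcggacagcccc

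Eef1a1 and Eif3f carried runs of 10 and 15 pyrimidines across the annotated start. Eef2 held a run of at least 7 beginning 16 bases into the transcript, cut by the end of the window. Eef1b2, on the TOP list, and Eif4a2, the member lowest in polysomal relative to subpolysomal RNA, held no such run. Eif2ak1, among the highest, held one of 5 before its start and, unmarked, further runs of that length after it. A run of this kind was present in the window of 10641 of 27025 genes (39.4%), and on the opposite strand in 44.4%. Of the 49 members with an entry 21 had one (42.9%). Among those on the TOP list it was 4 of 5, and among those off it 17 of 44 (38.6%). Of members called lower in polysomal RNA of scramble cells 40.0% had one, and of those called higher 33.3%, both near the share of all genes. A match describes letters near an annotated start and not the base at which transcription began in these cells.

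Ordered by role, the 5 mRNAs whose symbols begin with Eif1 (the eIF1 family) were all higher in polysomal RNA of scramble cells. Of their products eIF1 and eIF1A take part in choosing the start codon. Eif1ax, the X-linked gene of eIF1A, read 12.89, 13.02, 12.99 and 13.01 on the subpolysomal and 14.46, 14.52, 14.54 and 14.16 on the polysomal arrays. The difference of 1.44 (SE 0.09, adjusted p = 7.1e-09) was the highest of any member, and the 2 sets of arrays did not overlap. Probes for Eif1a and Eif1ax, and for Eif3j1 and Eif3j2, may each detect the transcripts of both near-identical genes, which was not tested. For eIF2, Eif2s2 (the beta subunit) was higher in polysomal RNA by 0.72 and Eif2s1 (alpha) and Eif2s3x (gamma) were not called. Among the eIF2 kinases Eif2ak1 (1.19), Eif2ak2 (0.56) and Eif2ak3 (0.36) were higher and Eif2ak4 was lower (−0.42). Its 3 probes disagreed, at −0.61, −0.87 and 0.23, and −0.87 was the brightest. In eIF2B, Eif2b1 was higher (0.46), Eif2b4 lower (−0.65), and the remaining 3 were not called.

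The 14 eIF3 mRNAs split into 6 lower, 5 higher and 3 not called. Eif3f (−1.39) and Eif3a (−1.16) were the lowest, and Eif3g (0.63) and Eif3j2 (0.62) the highest. Eif3f, a subunit of the octameric core, read 15.32, 15.14, 15.31 and 15.57 on the subpolysomal and 13.92, 13.89, 14.06 and 13.94 on the polysomal arrays of scramble cells. All 4 polysomal values lay below all 4 subpolysomal values. In the helicase group Eif4a2 (−1.84, SE 0.08), Eif4b (−1.64) and Eif4a1 (−0.32) were lower and Eif4h (0.90) and Eif4a3 (0.44) higher. Tested relative to the median of all genes, the Eif4a1 call was lost without any of 4 single arrays (adjusted p up to 0.0656) and that of Eif3j2 without any of 5 (up to 0.139). Eif4b and Eif4h thus lay on opposite sides, although both proteins stimulate eIF4A.

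The cap-binding step showed both directions too. Eif4e3 (0.92) and Eif4e2 (0.51), which encode relatives of eIF4E, were higher in polysomal RNA, and Eif4e itself was not called (0.24, adjusted p = 0.067). Of its binding proteins Eif4ebp1 was higher (0.45) and Eif4ebp2 lower (−0.87). Eif5a, whose product is the hypusine-bearing factor that helps ribosomes past difficult peptide bonds, read 14.59, 14.42, 14.59 and 14.73 on the subpolysomal and 15.95, 16.11, 16.06 and 15.82 on the polysomal arrays. That difference was 1.40 (adjusted p = 5.16e-08). Its tissue-restricted copy Eif5a2 was lower (−0.43, adjusted p = 0.00671). Among elongation factors Eef1a1 (−1.29), Eef2 (−1.12), Eef1g (−0.87) and Eef1b2 (−0.26) were lower, while Eef1d (1.23) and Eef1e1 (0.52), an aminoacyl-tRNA synthetase scaffold, were higher. Eef2k, the kinase that inhibits eEF2, was higher by 1.27.

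**Figure D1:**
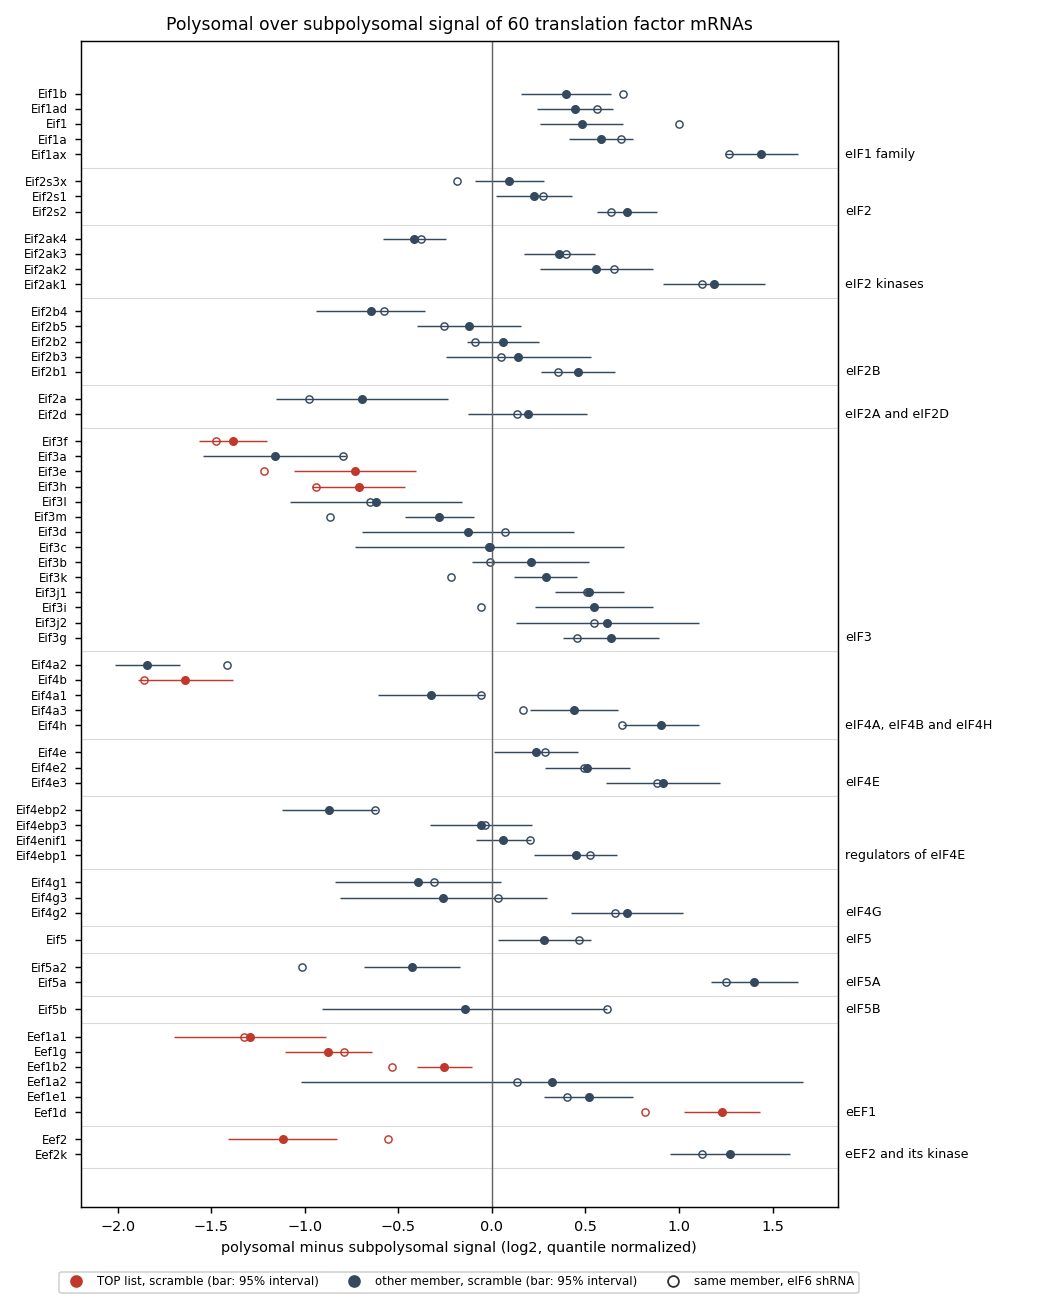
Polysomal minus subpolysomal log2 signal of the 60 tested mRNAs, grouped by factor complex, with filled points for scramble cells (bars, 95% confidence intervals), open points for eIF6 shRNA cells and red for the TOP list. Red points lie left of 0 except Eef1d, and the extremes in scramble cells are Eif4a2 at −1.84 and Eif1ax at 1.44.

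In eIF6 shRNA cells 25 members were higher and 18 lower in polysomal RNA, with a median of 0.10. Of all genes 32.1% were called higher and 28.7% lower. The counts were 17 and 23 with scaling to the 75th percentile, 43 and 0 with spike-in scaling, and 52 and 0 with separate normalization. The TOP list again held 8 lower mRNAs and Eef1d higher, with a median of −0.94. The eIF1 family was again higher in all 5, from 0.56 (Eif1ad) to 1.27 (Eif1ax). In eIF3, 7 were lower and 2 (Eif3g and Eif3j1) higher.

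Whether this division differed between the cells was tested by the change in translational efficiency, the polysomal minus subpolysomal difference in eIF6 shRNA cells less that in scramble cells. It was lower for 2 members, Eif3k and Eif3m, and higher for none. Across all genes 1.11% were lower and 0.403% higher. The members' median was −0.05 against 0.02 for all genes. Under scaling to the 75th percentile 5 members were lower, and under spike-in scaling none. The count was 2 or 3 without any 1 of 5 arrays, and 1 or 0 without any 1 of the other 11. It was 0 without scramble subpolysomal replicate 3, scramble polysomal replicate 1, or eIF6 shRNA subpolysomal replicate 1 or 3 or polysomal replicate 3. It was 1 without scramble subpolysomal replicate 1 or 2, scramble polysomal replicate 2 or 3, eIF6 shRNA subpolysomal replicate 2 or eIF6 shRNA polysomal replicate 2, and 0 without replicate number 1, 2 or 3 in every group.

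Eif3k encodes a small subunit at the edge of eIF3. In subpolysomal RNA it read 14.15, 14.15, 14.27 and 14.38 in scramble and 14.86, 14.90, 14.91 and 14.83 in eIF6 shRNA cells. In polysomal RNA the values were 14.51, 14.52, 14.54 and 14.53 against 14.74, 14.75, 14.48 and 14.65. The subpolysomal groups were apart and the polysomal groups overlapped. The change in translational efficiency was −0.50 (SE 0.11, 95% confidence interval −0.74 to −0.27, adjusted p = 0.0337), and its sign was the same on all 4 slides. The polysomal over subpolysomal difference went from 0.29 (called higher) in scramble to −0.22 (called lower) in eIF6 shRNA cells. All 3 probes gave a lower efficiency (−0.77, −0.23 and −0.51), but in scramble cells 1 of them had a polysomal over subpolysomal difference of −0.30 and the others 0.45 and 0.71. The call was lost without any of 10 single arrays, at adjusted p from 0.0570 to 0.0796, and without replicate number 1, 2 or 3, at adjusted p up to 0.315. Eif3k was also not called with spike-in scaling, with the replicate block (adjusted p = 0.0704) or in the authors' log2 values (0.0506).

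Eif3m encodes another core subunit of the octamer. Its subpolysomal values were 13.26, 13.23, 13.12 and 13.17 in scramble and 13.85, 13.72, 13.77 and 13.65 in eIF6 shRNA cells. On the polysomal arrays it read 12.94, 12.79, 12.84 and 13.08 in scramble and 12.86, 12.80, 12.80 and 13.06 in eIF6 shRNA cells. As for Eif3k, the difference lay in the subpolysomal fraction. The change in translational efficiency was −0.59 (SE 0.12, 95% confidence interval −0.85 to −0.33, adjusted p = 0.0258), with the 2 probes at −0.57 and −0.61. Among the alternatives that keep all arrays it missed the threshold under spike-in scaling alone. The call was lost without any of 6 single arrays, at adjusted p from 0.0508 to 0.0674, and without replicate number 1, 2 or 3, at adjusted p up to 0.303.

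The subpolysomal fraction held more of the changes. In it 11 members rose and 8 fell in eIF6 shRNA cells, where 11.9% of all genes were called higher and 12.3% lower. After quantile normalization a rise or fall between the cells, here and below, is relative to the other mRNAs and not an absolute amount. The median was −0.02 for the members and 0.03 for all genes. Members called changed numbered 9, 8, 9 and 31 without replicate numbers 1, 2, 3 and 4, and 0 under spike-in scaling, where the split over all genes went from 49.0% to 11.0% higher among those called.

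Of the TOP list 7 of 9 rose in subpolysomal RNA and none fell, with a median of 0.52, and all 9 values were above 0. Among the other 51 members 4 rose and 8 fell, with a median of −0.07. All 9 TOP mRNAs stayed above the median of all genes in this contrast under every setting and omission tried, with the list's median at 0.28 to 0.64 above it. The number called was 3, 2 and 3 without replicate numbers 1, 2 and 3, and 0 under spike-in scaling.

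The largest rise among them was that of Eif3f, from 15.32, 15.14, 15.31 and 15.57 to 16.07, 16.07, 16.04 and 16.01 (0.71, SE 0.09, adjusted p = 2.51e-05). Eef2, the translocase of elongation, rose from 16.01, 15.94, 16.07 and 16.24 to 16.72, 16.77, 16.83 and 16.46 (0.63, adjusted p = 0.00334). Eif3e rose by 0.60, Eif4b by 0.53, Eif3h by 0.38, Eef1d by 0.30 and Eef1b2 by 0.26. The eIF6 shRNA arrays lay above all scramble arrays for both Eif3f and Eef2. Eef1a1, the most used elongation factor gene, had 14.03, 14.08, 13.63 and 13.82 in scramble and 14.59, 14.50, 14.39 and 14.16 in eIF6 shRNA cells, a difference of 0.52 that missed the threshold (adjusted p = 0.0613). Its 2 probes gave 0.15 and 0.89. Eef1g was also not called (0.26, adjusted p = 0.0962). The calls of Eef1d and Eif3h were lost without any of 7 and 6 single arrays, at adjusted p up to 0.0876 and 0.0737.

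By complex, eIF3 had 6 mRNAs that rose (Eif3e, Eif3f, Eif3h, Eif3i, Eif3k and Eif3m), 1 that fell (Eif3j1) and 7 not called. Those that rose did so by 0.38 (Eif3h) to 0.71 (Eif3f), and Eif3i, a peripheral subunit with WD repeats, by 0.63 (adjusted p = 0.0059). In polysomal RNA Eif3i and Eif3e differed by 0.03 and 0.12. Their changes in translational efficiency, −0.60 and −0.49, were near those of Eif3m and Eif3k but were not called. Eif3j1, for the loosely bound eIF3j, read 8.74, 8.73, 8.60 and 8.55 in scramble and 8.45, 8.26, 8.38 and 8.32 in eIF6 shRNA cells (−0.30, adjusted p = 0.0175), a call lost without any of 3 single arrays. The subunit mRNAs of this one complex therefore did not move together. Eif3a, the largest subunit, had a difference of −0.26 (adjusted p = 0.328), and Eif3b, Eif3c, Eif3d, Eif3g, Eif3j2 and Eif3l were between −0.07 and 0.35, none called.

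**Figure D2:**
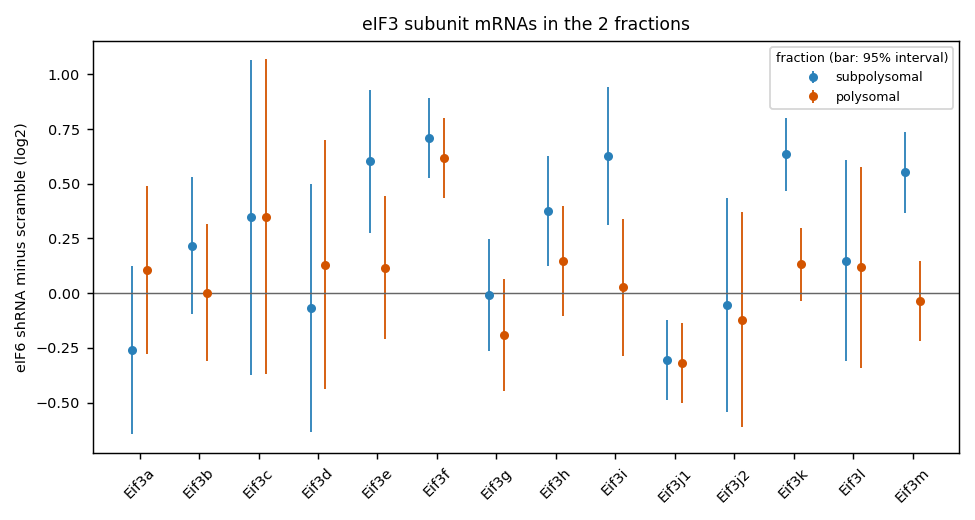
Difference of eIF6 shRNA minus scramble log2 signal for each of the 14 eIF3 mRNAs in subpolysomal and polysomal RNA, with 95% confidence intervals. Eif3k and Eif3m stand at 0.63 and 0.55 in subpolysomal RNA and at 0.13 and −0.03 in polysomal RNA, while Eif3f is raised in both.

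Besides Eif3j1, the mRNAs that fell in subpolysomal RNA were Eif2ak4, 3 of the eIF1 family, with Eif1 (−0.45, adjusted p = 0.00498), Eif1a (−0.30) and Eif1b (−0.32), and 3 around eIF4E. Eif1b was at adjusted p = 0.0485, and its call was lost without any of 12 single arrays. Eif1 is the factor that guards start codon choice. Eif4e3 read 5.36, 5.25, 5.23 and 4.76 in scramble and 4.35, 3.75, 3.92 and 4.04 in eIF6 shRNA cells (−1.14, SE 0.14, adjusted p = 3.55e-05). Eif4ebp1, a repressor released from eIF4E when mTORC1 is active, went from 16.16, 16.23, 16.18 and 16.23 to 15.70, 15.76, 15.73 and 15.96 (−0.41, adjusted p = 0.00992). Both sets of groups were apart. Eif4enif1, which carries eIF4E into the nucleus, fell by 0.34.

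Of the 4 eIF2 kinases 1 fell, 1 rose and 2 (Eif2ak1 and Eif2ak2) were not called. Eif2ak4 (GCN2, the sensor of uncharged tRNA) read 6.99, 6.81, 6.81 and 6.72 in scramble and 6.45, 6.47, 6.29 and 6.30 in eIF6 shRNA subpolysomal RNA (−0.45, adjusted p = 0.000648). Its 3 probes gave −0.71, −0.39 and −0.27. The one at −0.71 was well above background on 4 scramble but only 1 eIF6 shRNA subpolysomal array. Eif2ak3 (PERK, the kinase of the endoplasmic reticulum) read 8.88, 8.81, 8.81 and 8.50 against 8.93 to 9.08 on the 4 eIF6 shRNA arrays (0.26, adjusted p = 0.0472). The groups did not overlap for either. The Eif2ak3 call was lost without any of 12 single arrays.

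In polysomal RNA 9 members fell and 4 rose in eIF6 shRNA cells, where 10.7% of all genes were called lower and 11.1% higher. The paper reports reduced polysomes in the depleted cells, a difference that quantile normalization removes. For selected targets it states that relatively raised mRNAs had similar absolute levels. The rises below are relative, and absolute polysomal amounts were not tested. The medians were 0.01 for the members and 0.02 for all genes. The count of 13 was 8 without scramble polysomal replicate 1 or 2, 7 without eIF6 shRNA polysomal replicate 3, and 6, 7 and 6 without replicate numbers 1, 2 and 3. Under spike-in scaling 1 was called, and higher calls over all genes fell from 50.9% to 8.73% of those called. Leaving out each of the 16 arrays in turn kept 7 calls throughout, namely Eef2, Eif3f, Eif4e3, Eif5a2, Eif2ak4, Eif2s2 and Eif3j1.

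Eef2 showed the largest rise. Its polysomal values were 14.78, 14.71, 14.96 and 15.34 in scramble and 16.09, 15.94, 16.21 and 16.31 in eIF6 shRNA cells, a rise of 1.19 (SE 0.14, 2.28-fold, adjusted p = 1.07e-05). The lowest eIF6 shRNA array lay above the highest scramble array. As it also rose in subpolysomal RNA, its change in translational efficiency of 0.56 missed the threshold (adjusted p = 0.204). This rests on 1 probe, in mm9 at chr10:80644934-80644993. Eif3f rose from 13.92, 13.89, 14.06 and 13.94 to 14.64, 14.62, 14.55 and 14.48 (0.62, adjusted p = 7.43e-05), close to its subpolysomal rise. Eef1g, a subunit of the exchange factor of eEF1A, read 15.35, 15.49, 15.56 and 15.81 in scramble and 15.83, 15.70, 16.05 and 16.02 in eIF6 shRNA cells, which overlapped. Its difference of 0.35 passed the test (adjusted p = 0.033) but not without any of 5 single arrays, at adjusted p up to 0.115. These 3 were the TOP mRNAs that rose in polysomal RNA, and 7 of the 9 were above 0, with a median of 0.31. Eef1a1 went from 12.75, 12.23, 12.42 and 12.99 to 13.08, 12.79, 12.88 and 13.59 (0.49, adjusted p = 0.0877), which overlapped and was not called.

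Eef1e1 fell, from 12.02, 12.06, 11.81 and 11.73 to 11.61, 11.58, 11.55 and 11.45 (−0.36, adjusted p = 0.0318). The 2 groups were apart, yet the call was lost without any of 5 single arrays. The eIF5A mRNAs both fell in polysomal RNA and neither was called in subpolysomal RNA. Eif5a2 went from 8.29, 8.28, 8.37 and 8.06 to 7.68, 7.66, 7.66 and 7.44 (−0.64, SE 0.12, adjusted p = 0.00112), and the 4 eIF6 shRNA arrays lay below every scramble array. Its subpolysomal difference was −0.05 and its change in translational efficiency −0.59 (adjusted p = 0.120). Eif5a went from 15.95, 16.11, 16.06 and 15.82 to 15.64, 15.89, 15.39 and 15.45 (−0.39, adjusted p = 0.0173), with overlap, and was lost without scramble polysomal replicate 2 (adjusted p = 0.0554) or eIF6 shRNA polysomal replicate 3 (0.0598).

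Around the cap, Eif4e3 fell in polysomal RNA from 6.20, 6.10, 5.90 and 6.07 to 4.76, 5.02, 4.92 and 4.88. That fall of 1.17 (adjusted p = 2.08e-05) stood beside a subpolysomal fall of 1.14, with a change in translational efficiency of −0.03 (95% confidence interval −0.46 to 0.40). Its 1 probe lies in mm9 at chr6:99575493-99575552. Eif4ebp1 read 16.67, 16.60, 16.54 and 16.77 in scramble and 16.35, 16.55, 16.35 and 16.01 in eIF6 shRNA cells (−0.33, adjusted p = 0.0327), with overlap, and the call was lost without any of 6 single arrays. Eif4e, the cap-binding protein that both bear on, was 9.08, 9.28, 9.25 and 8.86 against 9.08, 9.17, 9.07 and 9.01. Its polysomal difference was −0.03 (95% confidence interval −0.26 to 0.19) and its subpolysomal one −0.08 (−0.31 to 0.14), neither called. These are means of 3 Eif4e probes that disagreed in sign. They gave −0.23, −0.10 and 0.23 in polysomal RNA and, in the same order, −0.20, −0.17 and 0.12 in subpolysomal RNA. The last was the dimmest. Eif4ebp2 read 12.82, 12.97, 12.87 and 12.34 in scramble and 12.75, 12.84, 12.88 and 12.81 in eIF6 shRNA polysomal RNA, a difference of 0.07 (95% confidence interval −0.18 to 0.33). None of the 3 eIF4G genes passed the test in any contrast between the cells.

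In the eIF2 cycle Eif2s2 fell by 0.29 (adjusted p = 0.00993) and Eif2b2, a subunit of the exchange factor eIF2B, by 0.30 (adjusted p = 0.0294), the latter lost without any of 5 single arrays. Eif2s1, whose product is phosphorylated by the eIF2 kinases, read 11.58, 11.55, 11.37 and 11.81 in scramble and 11.45, 11.45, 11.51 and 11.63 in eIF6 shRNA polysomal RNA (−0.07, 95% confidence interval −0.27 to 0.13). Eif2ak4 fell from 6.48, 6.41, 6.41 and 6.36 to 6.06, 5.89, 6.06 and 5.97 (−0.42, adjusted p = 0.00106). All 3 of its probes were negative, from −0.75 to −0.18, and its brightest probe alone was not called. The probe at −0.75 was well above background on 4 scramble but only 1 eIF6 shRNA polysomal array, so its size depends on values near background. Eif2ak3 rose from 9.11, 9.19, 9.11 and 9.04 to 9.49, 9.25, 9.45 and 9.42 (0.29, adjusted p = 0.0271), lost without any of 5 single arrays. Eif3j1 fell from 9.25, 9.16, 9.14 and 9.16 to 9.02, 8.92, 8.65 and 8.84 (−0.32, adjusted p = 0.0136). Eef2k, with 6.91, 6.97, 6.79 and 7.16 against 7.09, 7.26, 7.24 and 7.29, was not called (0.26, adjusted p = 0.258).

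**Figure D3:**
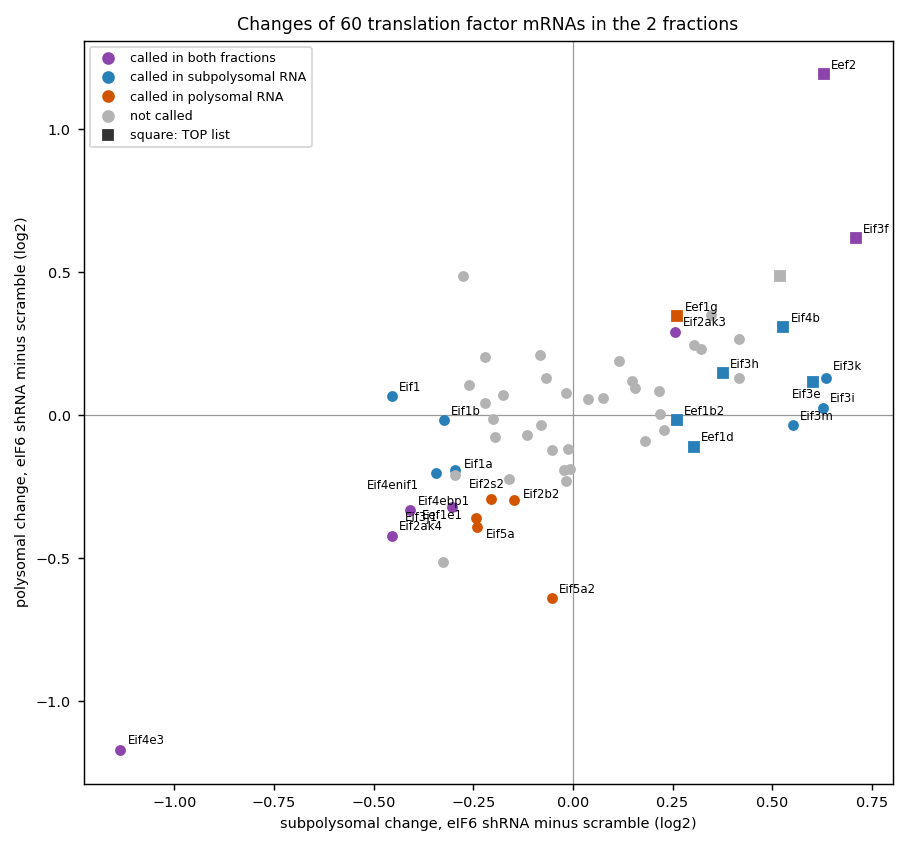
Polysomal against subpolysomal change (eIF6 shRNA minus scramble, log2) of the 60 tested mRNAs, coloured by the fraction in which each was called and drawn as squares for the TOP list. Eef2 stands apart at 0.63 and 1.19 and Eif4e3 at −1.14 and −1.17. Eif3k and Eif3m are raised mainly along the subpolysomal axis, as are Eif3e and Eif3i.

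**Figure D4:**
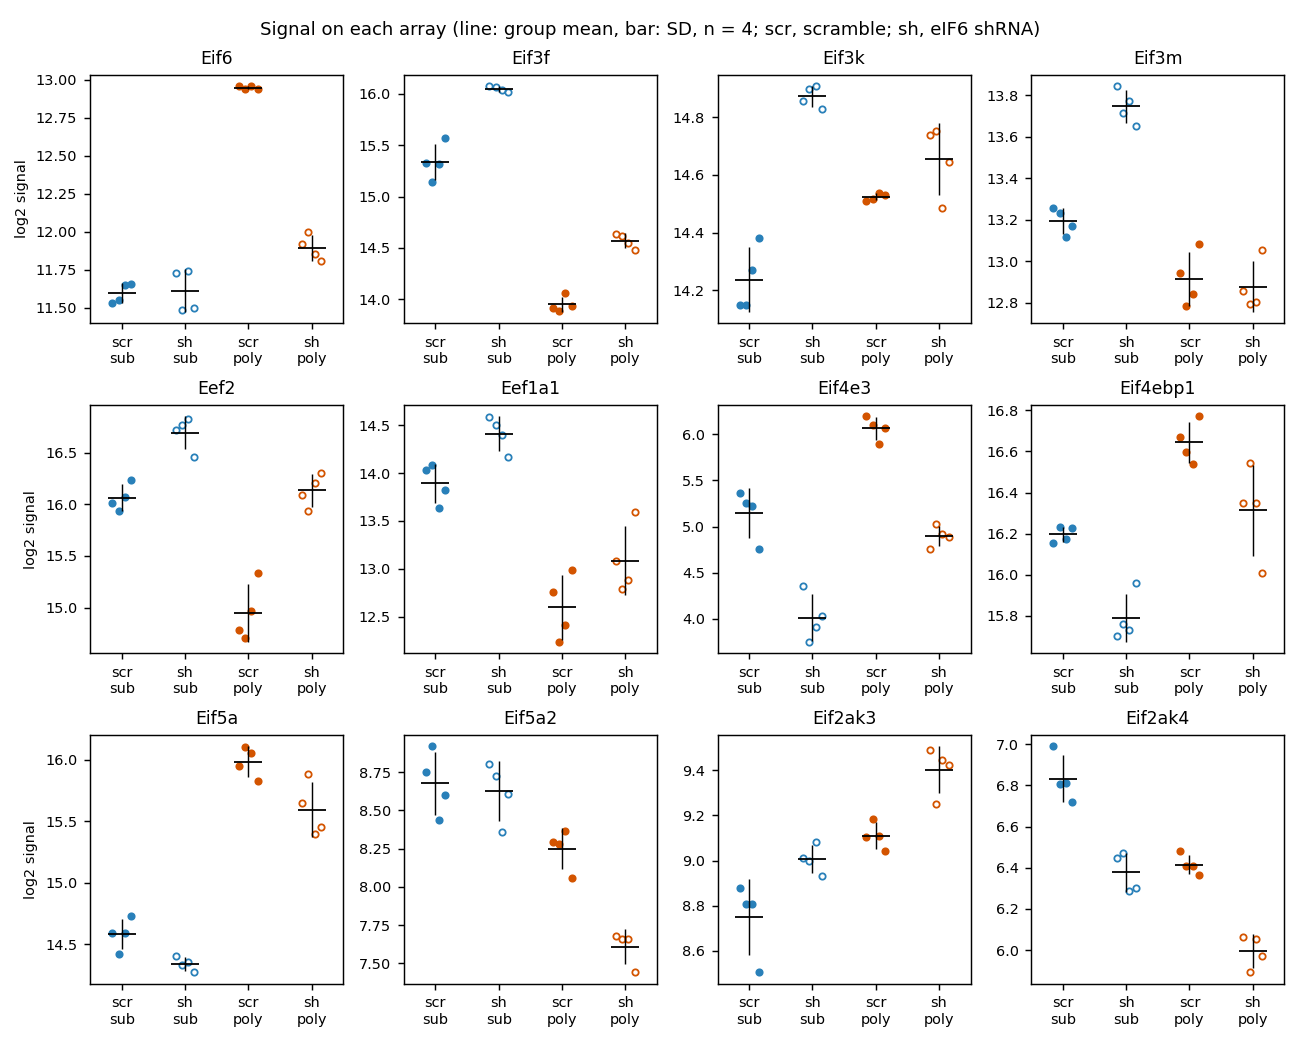
Log2 signal on each of the 16 arrays for Eif6 and 11 translation factor mRNAs, with points for arrays, a line for the group mean and a bar for the SD (n = 4). The eIF6 shRNA arrays lie apart from the scramble arrays for Eif5a2 in polysomal RNA and for Eif4e3 and Eef2 in both fractions.

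Eef1a2, the muscle and neuron form of eEF1A, and Eif5b, the subunit-joining GTPase, were tested but well above background on 3 and 2 arrays alone, and no fold is given. The remaining members not named above had no call between the cells.

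For the wider pathway, 23 other genes that act on these factors were set beside them. In polysomal RNA Pdcd4, an inhibitor of eIF4A, fell by 0.48 and Paip2b, an inhibitor of poly(A)-binding protein, by 0.56, while Mknk2, a kinase of eIF4E, rose by 0.39. In subpolysomal RNA Pdcd4 fell by 1.00 and Paip2b by 0.50. The other 20 passed the test in neither fraction. In scramble cells 7 of the 23 were lower in polysomal RNA, among them Pdcd4 (−2.69) and the poly(A)-binding protein genes Pabpc4 (−2.04) and Pabpc1 (−1.65). Another 6 were higher, among them Paip2b (1.09), Paip2 (0.86) and Ppp1r15b (0.76). Over all genes tested, 28.4% were lower and 31.7% higher. None of the 23 changed in translational efficiency.

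Ribosomal protein mRNAs, the main TOP class, had 81 tested members. In scramble cells 37 were lower and 25 higher in polysomal RNA, with a median of −0.16 against −0.87 for the 9 TOP translation factors. Of all genes tested 28.4% were lower and 31.7% higher. In subpolysomal RNA 28 of the 81 rose and 2 fell in eIF6 shRNA cells (median 0.17), beside 11.9% and 12.3% of all genes. In polysomal RNA none of the 81 rose and 1 fell (median 0.01), beside 11.1% and 10.7% of all genes. Translational efficiency of the 81 was lower for 2 and higher for none, beside 1.11% and 0.403% of all genes. Of 9 mitochondrial translation factors Mtif3 rose in both fractions (0.37 polysomal, 0.41 subpolysomal) and Mtif2 fell in subpolysomal RNA (−0.29). Of 20 aminoacyl-tRNA synthetases none changed in polysomal RNA, 1 rose in subpolysomal RNA and none changed in translational efficiency.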

How the data were processed

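Polysomal and subpolysomal RNA of AML12 cells was hybridised to 16 one-colour Agilent arrays (4 groups of 4). The deposited scanner output, per the file headers, holds the processed signal intensity of each spot after background subtraction by Agilent Feature Extraction (version 10.7.7.1 in the submitters' processing notes, 10.7.3.1 in the file header). The authors also deposited a quantile-normalized log2 table, used as an alternative. It correlated at r = 0.9947 to 0.9997 with the scanner values. The insulin unit is nM in one label and mM in another; nM was taken from the methods.

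From the processed intensities, outlier spots were left out, log2 taken, repeated spots averaged, probes kept if the scanner software marked them well above background on 2 or more of the 4 arrays in some group, and quantile normalization applied over the 16 arrays. A gene was the mean of its kept probes (22 members had several, 38 had 1). Group means were fitted with limma 3.58.1 in R 4.3.3 (data.table, version 1.17.8), with 5 contrasts and Benjamini-Hochberg adjustment over 19366 genes at 0.05. The script was tested on simulated data. Array number limits the precision. No spot of a member was saturated. Whether replicates came from separate cultures rests on the methods' description, and otherwise p-values measure only the spread between these arrays.

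Members and lists were chosen with earlier results of these data known. Values per array are given for members called in translational efficiency, the 10 largest called polysomal changes among members well above background on all arrays, and members named for their role. All 62 members were matched to RefSeq by accession, and 49 had a start sequence. Eif3e, Eef1d, Eif3j2, Eif3h, Eif4e3, Eif1a, Eif4ebp1, Eif4e1b, Eif2b3, Eif3i, Eef1g, Eif4g2 and Eif4ebp3 had none. Probe coordinates are those of the scanner files (mm9). Replicates within a group correlated at r = 0.988 to 0.995, and no 2 arrays were identical.

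Alternatives were arrays set to a common 75th percentile, arrays set to the mean of 7 spike-in probes, quantile normalization before the filter or within each fraction, normexp background correction (offset 50), a stricter or no filter, the brightest probe, the authors' log2 table, slide or replicate number as a block, and omission of each replicate number and each array.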

Additional observations from a re-analysis of the deposited data

Results flagged for a closer look

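In the group-wise check for single distant arrays, 76 groups of 4 arrays over 19 genes were examined and 3 were marked, where chance marks about 1 group in 20. Eif5a2 was lowest in eIF6 shRNA polysomal replicate 4, at 7.44 with the next array at 7.66 and the highest at 7.68. Eif4e was highest in eIF6 shRNA subpolysomal replicate 4, at 9.01 with the next at 8.75 and the lowest at 8.70. Eif2s1 was lowest in scramble subpolysomal replicate 4, at 11.22 with the next at 11.38 and the highest at 11.40.

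Eif3k and Eif3m were marked because the polysomal over subpolysomal difference itself differed between eIF6 shRNA and scramble cells in the limma interaction contrast, by −0.50 for Eif3k (adjusted p = 0.0337) and −0.59 for Eif3m (adjusted p = 0.0258). The difference had the same sign on all 4 slides for both.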

How the results depend on the processing

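With spike-in scaling 1 member was called in polysomal RNA (13 as reported), 0 in subpolysomal RNA (19) and 0 in translational efficiency (2), and of the TOP list 0 rose in subpolysomal RNA (7) and 0 were lower in polysomal than subpolysomal RNA of scramble cells (8). The spread between arrays in the level of these probes, 12.1 to 13.6 on the log2 scale, enters that scaling directly. Quantile normalization of each fraction on its own also left 0 of the 8. For translational efficiency 5 members were called with the 75th percentile, 1 with the log2 values of the authors and 1 with the replicate block. Omitting replicates or arrays gave 6 to 16 calls in polysomal RNA, 8 to 31 in subpolysomal RNA, 0 to 3 in translational efficiency, 34 to 49 and 36 to 46 between the fractions of scramble and eIF6 shRNA cells, 2 to 9 TOP mRNAs raised in subpolysomal RNA and 7 to 8 lower in polysomal than subpolysomal RNA. Leaving aside spike-in scaling, 8 of 13 polysomal, 11 of 19 subpolysomal and 1 of 2 translational efficiency calls (Eif3m) passed under all 10 other alternatives.

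Signs turned under spike-in scaling for the polysomal change of Eef1g (−0.15) and for Eif2ak3 (−0.17 polysomal, −0.036 subpolysomal). For the polysomal over subpolysomal difference relative to the median of all genes, they turned for Eif2s3x in eIF6 shRNA cells (0.063 with the 75th percentile, 0.063 with spike-ins, 0.042 with separate normalization), Eif3m in scramble cells (0.14, 0.14 and 0.16), Eif4ebp1 in eIF6 shRNA cells (−0.0067 with the 75th percentile and spike-ins) and in scramble cells (−0.12 with separate normalization), and Eif3k in eIF6 shRNA cells (0.18 with the brightest probe). The cause was not tested.

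Same-numbered arrays had deviations correlated at −0.21 to 0.41. Between the fractions of the same cells the range was −0.16 to −0.0035 (scramble) and −0.036 to 0.03 (eIF6 shRNA). In both, 0 arrays correlated best with their own number, against 2 between the polysomal arrays of scramble and eIF6 shRNA cells. With so few arrays per group, these values cannot decide whether the numbers mark shared lysates. The main fit did not pair arrays. With the replicate block 12 members were called in polysomal RNA and 18 in subpolysomal RNA. With the slide as a block 12 and 22 were called.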
